A study of Homo sapiens with 2 samples.

Results

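The genes described here are 39 components of TGF-beta, activin and BMP signalling: ligands, binding proteins, receptors, SMAD proteins, negative regulators and a few target genes. They were found on the array by the gene symbol of each probe in the platform annotation, updated to the current name. Of the 39 genes, 35 had a named probe, out of 12445 genes named on the array, and they were read by 36 probes because BMPR1A had 2. No probe carried the name of TGFB2, LTBP3, BMPR2 or SMAD3, so these genes were not analysed here. KYSE-170, a line of human oesophageal squamous cell carcinoma, was used throughout; 1 culture was transfected with miR-210 and the other with an oligoribonucleotide that the labels call ncRNA. Both cultures were grown in the same serum-containing medium and transfected with the same reagent. The labels give neither the ncRNA sequence nor the time after transfection. Each group had 1 array, so every value is a single measurement, no p-value was computed, and differences between cultures cannot be estimated.

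TGF-beta, activin and BMP ligands are secreted dimers that bring together type II and type I receptor kinases. TGF-beta and activin receptors phosphorylate SMAD2 and SMAD3, BMP receptors phosphorylate SMAD1 and SMAD5, and both classes then join SMAD4 and act on transcription in the nucleus. In squamous epithelium, TGF-beta is known for slowing proliferation, and BMP signalling for driving the ID genes. ACVR1B, a type I activin receptor, has been reported as a target of miR-210.

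The transfected microRNA is shown first because its seed, the stretch that pairs with target transcripts, defines the treatment. The mature forms are printed from RefSeq (GRCh38.p14, chr11:568112-568133 and chr11:568150-568171, minus strand), 5′ to 3′, with bases 2 to 8 in capitals. The labels name miR-210 without an arm. No other mature human microRNA among the 2370 names in the table carried either seed.
hsa-miR-210-3p: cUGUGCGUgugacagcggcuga
hsa-miR-210-5p: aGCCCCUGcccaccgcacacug

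The array is a 1-colour design read as fluorescence intensity, and levels of different genes cannot be compared because each probe binds with its own strength. The median intensity was 39 with ncRNA and 36 with miR-210. Intensities below are the deposited values, and the log2 ratio is miR-210 over ncRNA after quantile normalization, which gives both arrays the same distribution. A gene was kept when the geometric mean of its normalized intensities reached 37.5, the median of all probes, and its brightest kept probe was used. This left 6684 genes, split below into 4 classes of 1671 genes by level. A single probe scattered around its gene with a SD of 0.44 on the log2 scale, a 1.35-fold difference, estimated from 251 genes with at least 2 kept probes. This spread between probes contains no error between cultures or arrays. Of the cell type markers, 9 of the 10 measured squamous epithelial markers were kept, among them KRT5 (290 with ncRNA and 496 with miR-210) EPCAM (4502 and 6165) and SFN (12693 and 7094), while TP63 (57 and 22) was under the filter. The summed intensity of the 10 squamous markers was 18801 with ncRNA and 15261 with miR-210. The lower sum came from the bright SFN probe. Only SFN and TP63 read lower with miR-210, and all the other squamous markers read higher. The sums were 345 and 324 over 7 fibroblast genes, 252 and 204 over 6 endothelial genes and 59 and 83 over 4 leukocyte genes, and sums of different probes are not comparable between lists. Dim markers of the fibroblast and endothelial lists went both ways. COL1A1 read 21 and 16 but COL1A2 10 and 15, and PECAM1 read 21 and 9 but CDH5 10 and 26. The 4 leukocyte genes all read higher at low intensity, among them PTPRC (9 and 10) and CD68 (18 and 33). None of these markers was at 0. Outside the squamous list, 2 fibroblast markers (DCN at 183 and 181, PDGFRB at 87 and 78) and 2 endothelial markers passed the level filter.

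ID1, a helix-loop-helix inhibitor of transcription factors and a standard BMP target, was the lowest member on the miR-210 array, and SKIL and TGFBR3 were the highest. Of the 35 genes measured, 27 passed the level filter, with 13 above 0 and 14 under it, where 50.2% of all kept genes were above 0. At least 2-fold differences were seen for 3 of the 27 (11.1%), where 6.21% of all kept genes differed by that much. Of these 3, TGFBR3 passed the level filter through its miR-210 value, with a normalized ncRNA value of 31. The members were also chosen with earlier results of these data known, so their shares are not independent of those results. In the higher direction there were 2 members, against 3.02% of all kept genes, and in the lower direction 1 member, against 3.19%. Without normalization the same counts of members were found, while the share of higher genes among all genes 2-fold apart was 30.6% in place of 48.7%. Farther from 0 than the spread between probes were 13 of the 27 (48.1%), against 34.8% of all kept genes. These 13 were split into 6 higher, where 18.0% of all genes were higher, and 7 lower, where 16.8% were lower. Among the 13, BMP2, INHBA, INHBB, TGFBR1, ACVR1B, TGFBR3 and BAMBI were in the dimmest level class. There the log2 ratios of all kept genes had a SD of 0.58, against 0.47 in the brightest class. The same limit was used at every level. The median log2 ratio of the 27 members was -0.001 and that of all kept genes 0.007. The mean of the members was 0.02, of opposite sign to the median. Both settings that left out quantile normalization moved the members' median to -0.20 on the deposited scale and -0.12 with median centring, where the median of all genes was itself -0.12 and -0.04. A stricter level filter, at the 75th percentile, left 9 members with a median of 0.35, against 0.006 for all genes.

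**Figure D1:**
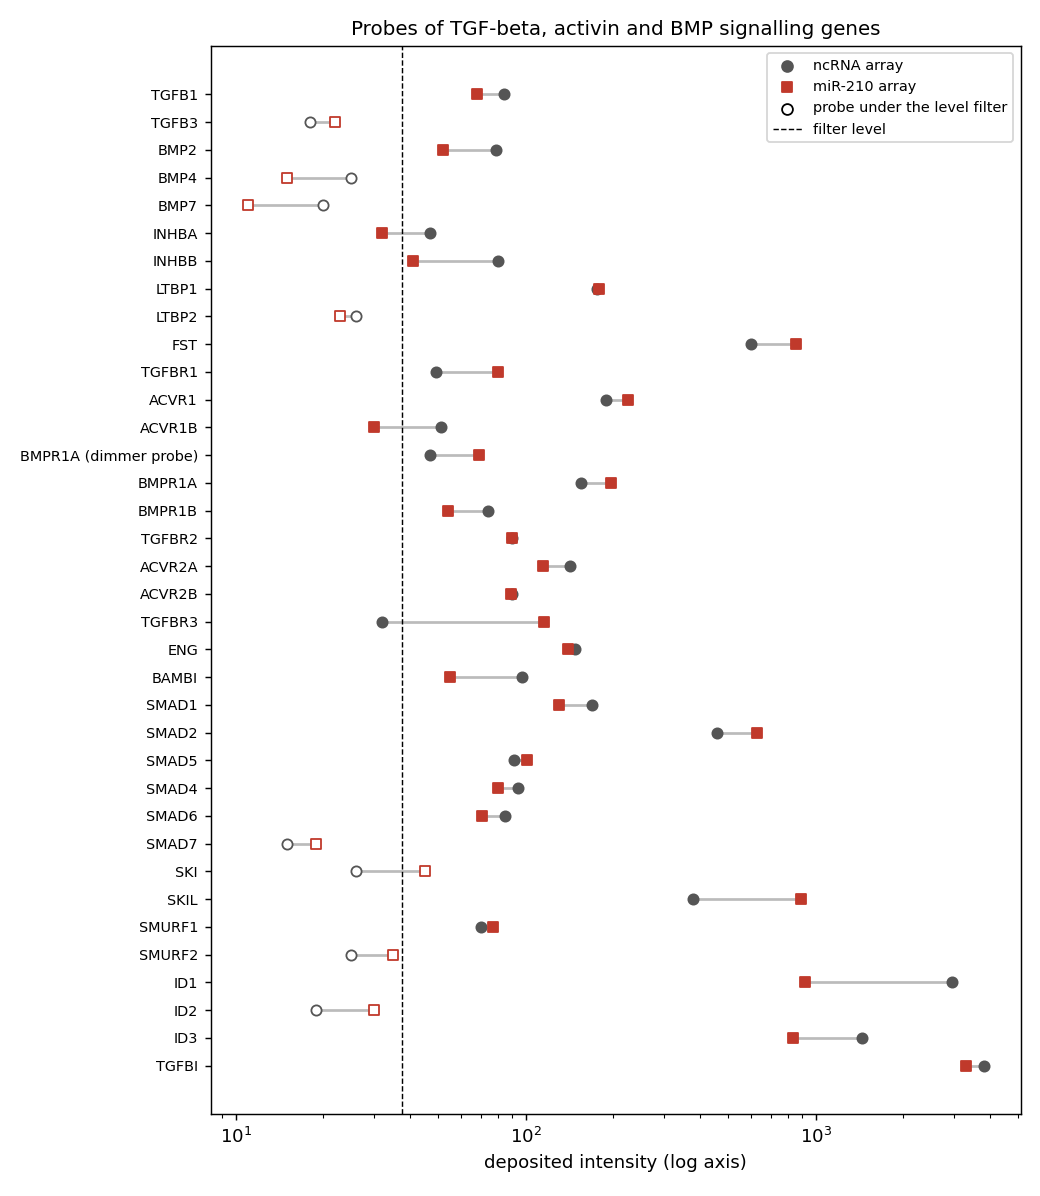
Deposited intensity of each probe on the ncRNA array (grey circles) and the miR-210 array (red squares), on a log axis, with 1 array per group; open symbols are probes under the level filter, and the dashed line is the filter level of 37.5, which applies to the normalized mean of both arrays. ID1 runs from 2961 down to 916, and TGFBR3 from 32 up to 116.

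Among the ligands, the probes past the filter all read lower with miR-210, where 50.2% of all kept genes were above 0. Of 6 further ligands kept from a wider pathway list, 1 was above 0 and past the spread between probes. TGFB1, the most widely expressed TGF-beta, read 84 with ncRNA and 68 with miR-210, a log2 ratio of -0.19. BMP2, a ligand of the BMP receptors, read 79 and 52, a log2 ratio of -0.49. Both activin subunits were also lower. INHBA, the subunit of activin A, read 47 and 32, a log2 ratio of -0.46, and its miR-210 value lay under the filter level. It was therefore kept through its ncRNA value, and the size of the fold is uncertain. INHBB, the subunit of activin B, read 80 and 41, a log2 ratio of -0.86 or 1.81-fold lower. Of these 4 genes, BMP2, INHBA and INHBB were past the spread between probes, and none reached 2-fold. BMP2 and INHBA lay close to that limit and did not pass it with an offset of 10 before log2, at -0.43 and -0.37. TGFB3 (18 and 22), BMP4 (25 and 15) and BMP7 (20 and 11) were under the level filter, and no ratio was read from them.

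The binding proteins did not share the direction of the ligands. FST encodes follistatin, which binds activin and keeps it from its receptors. It read 597 with ncRNA and 854 with miR-210, a log2 ratio of 0.63 or 1.55-fold higher, past the spread between probes and in the brightest of the 4 level classes. LTBP1, which holds latent TGF-beta in the matrix, read 176 and 179, a log2 ratio of 0.14 and within that spread. LTBP2 (26 and 23), a related matrix protein, was under the level filter. Thus the activin subunits read lower and the activin trap higher on the same array, each with 1 probe. Of the subunits, INHBA was kept only through its ncRNA value.

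The type I receptors, which carry the kinase that acts on SMAD proteins, were split. TGFBR1, the type I TGF-beta receptor, read 49 with ncRNA and 80 with miR-210, a log2 ratio of 0.81 or 1.76-fold higher. ACVR1B, the type I activin receptor named above, read 51 and 30, a log2 ratio of -0.68 or 1.6-fold lower, and its miR-210 value was under the filter level. ACVR1B was therefore kept through its ncRNA value, and the size of its fold is uncertain. TGFBR1 and ACVR1B signal through the same SMAD proteins, and they differed in opposite directions, both past the spread between probes. Both were in the dimmest level class. BMPR1A, a type I BMP receptor, was the only member with a pair of kept probes. Its brighter probe read 155 and 197, a log2 ratio of 0.46, and its dimmer probe 47 and 69, a log2 ratio of 0.65. Both probes were higher with miR-210, and the brighter was only just past the spread, at 0.35 without normalization. ACVR1, another type I receptor of BMPs, read 190 and 225, a log2 ratio of 0.35. BMPR1B, the closest relative of BMPR1A, read 74 and 54, a log2 ratio of -0.35. Both were within the spread between probes, although BMPR1B passed it without normalization, at -0.45.

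The type II receptors, which bind ligand and activate the type I partner, stayed within the spread between probes. TGFBR2, the type II TGF-beta receptor, read 90 on both arrays, a log2 ratio of 0.12 after normalization and 0 before it. ACVR2A, an activin receptor, read 142 and 115, a log2 ratio of -0.21. ACVR2B, its paralogue, read 90 and 89, a log2 ratio of 0.10 that turned to -0.02 without normalization. A single probe leaves an interval of 1 SD from -0.32 to 0.56 for TGFBR2, wide enough to hold a moderate difference. That interval contains no error between cultures or arrays, so the smallest detectable difference cannot be stated.

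**Figure D2:**
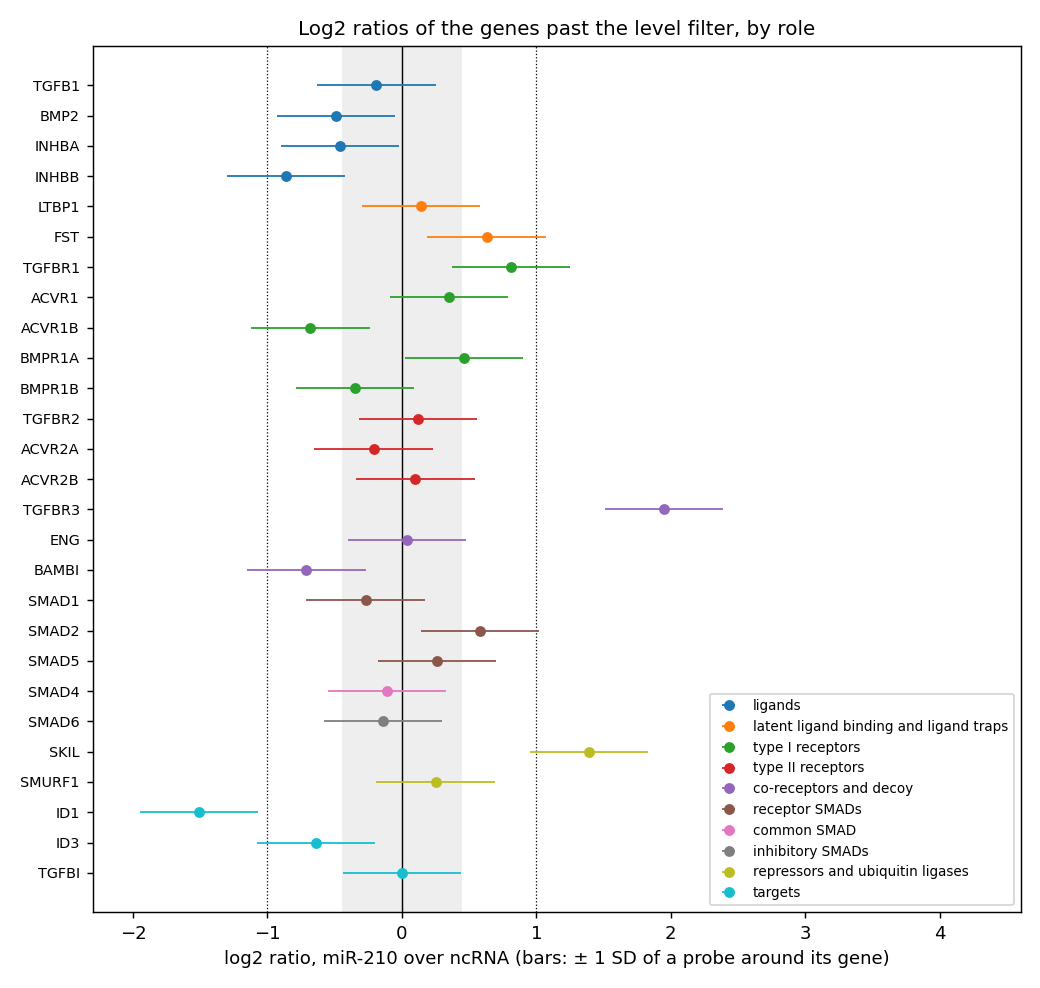
Log2 ratio of miR-210 over ncRNA for the 27 genes past the level filter, grouped and coloured by role, with 1 array per group; bars are ± 1 SD of a probe around its gene (0.44), the grey band spans that SD around 0 and dotted lines mark 2-fold. TGFBR3 and SKIL lie beyond 2-fold on the right, ID1 on the left, and all 3 type II receptors inside the band.

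The co-receptors held the member with the largest ratio. TGFBR3 encodes betaglycan, which presents TGF-beta to the signalling receptors and binds inhibin. It read 32 with ncRNA and 116 with miR-210, a log2 ratio of 1.95 or 3.87-fold higher, and an interval of 1 SD from 1.51 to 2.39. It ranked 9 from the highest of 6684 genes. The ncRNA value was under the filter level, so the gene was kept through its miR-210 value and the size of the fold is uncertain; with an offset of 10 the log2 ratio was 1.66. In the dimmest class, to which TGFBR3 belongs, 7.54% of genes differed at least 2-fold, and 3 of 1671 genes were as high, itself included. BAMBI, a receptor-like protein without a kinase that blocks signalling and is itself a BMP target, went the other way. It read 97 and 55, a log2 ratio of -0.71 or 1.64-fold lower. ENG, the co-receptor endoglin best known from endothelium, read 148 and 140, a log2 ratio of 0.04 that turned to -0.08 without normalization. Of 6 endothelial markers, 2 passed the level filter, VWF (126 and 103) and KDR (66 and 36), and the others did not. A dimmer VWF probe read the other way, at 21 and 30. Both cultures were of the carcinoma line KYSE-170, and the source of these marker signals was not tested.

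Of the SMAD genes, SMAD2 alone was past the spread between probes. SMAD2, a mediator of TGF-beta and activin, read 457 with ncRNA and 627 with miR-210, a log2 ratio of 0.58 or 1.49-fold higher. SMAD1, a mediator of BMP signals, read 169 and 130, a log2 ratio of -0.27. SMAD5, which shares that role, read 91 and 101, a log2 ratio of 0.26. SMAD4, the common partner, read 94 and 80, a log2 ratio of -0.11. SMAD6, an inhibitory SMAD that acts mainly on the BMP branch, read 85 and 71, a log2 ratio of -0.14. SMAD7, the general inhibitory SMAD, read 15 and 19 and was under the level filter.

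Among the repressors, SKIL stood out. It encodes SnoN, which represses transcription by binding SMAD complexes and is itself induced by TGF-beta. It read 377 with ncRNA and 893 with miR-210, a log2 ratio of 1.39 or 2.62-fold higher, and an interval of 1 SD from 0.95 to 1.83. It ranked 67 from the highest of all kept genes. It belonged to the brightest class, where 4.73% of genes differed at least 2-fold and 12 of 1671 were as high, itself included. SKI, the close relative of SKIL, read 26 and 45 and was under the level filter. SMURF1, a ubiquitin ligase that targets SMAD proteins and receptors, read 70 and 77, a log2 ratio of 0.25. SMURF2, which has a like role, read 25 and 35 and was under the level filter. SMURF1 was thus within the spread between probes, and only SKIL of this group was past it.

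ID1 and ID3, both read by bright probes, were lower with miR-210. ID1 read 2961 with ncRNA and 916 with miR-210, a log2 ratio of -1.51 or 2.84-fold lower, and an interval of 1 SD from -1.95 to -1.07. It ranked 59 from the lowest of all kept genes, and in its class, the brightest, 15 of 1671 genes were as low, itself included. ID3, a paralogue with the same mode of action, read 1447 and 834, a log2 ratio of -0.64 or 1.56-fold lower. ID2 was under the level filter, at 19 and 30. ID4, taken from the wider pathway list and singled out here after its values were seen, read 188 and 97, a log2 ratio of -0.84. The 3 ID genes past the filter were therefore all lower, with ID1 alone beyond 2-fold. TGFBI, a matrix protein and classical TGF-beta target, read 3794 and 3302, a log2 ratio of -0.001, and -0.20 on the deposited scale. The ID genes and TGFBI were thus not displaced together.

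**Figure D3:**
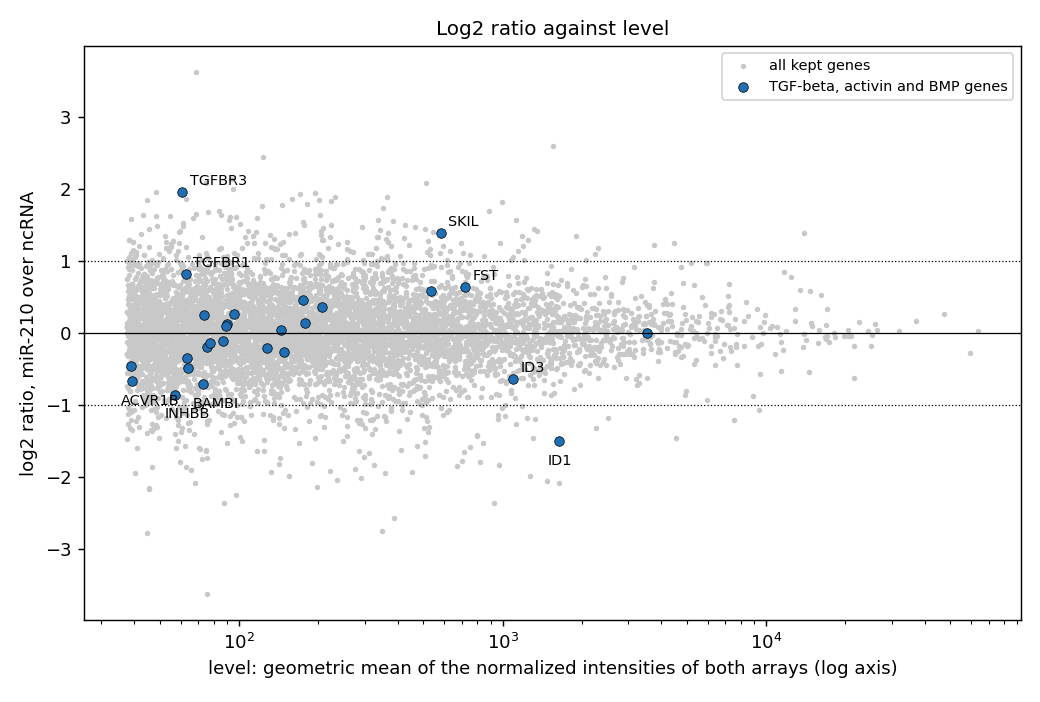
Log2 ratio of miR-210 over ncRNA against level (geometric mean of the normalized intensities of both arrays, log axis) for the 6684 kept genes in grey and the 27 members in blue, with dotted lines at 2-fold. ID1 and SKIL lie among bright genes, where the grey cloud is narrower (SD 0.47 in the brightest class against 0.58 in the dimmest), and TGFBR3 among dim ones.

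The promoters of ID1, ID3 and SKIL are shown because a pair of target genes and a repressor with bright probes had ratios past the spread between probes, in opposite directions. The 250 bases before each RefSeq start (GRCh38.p14) are printed 5′ to 3′ on the gene's strand: chr20:31605039-31605288 on the plus strand for ID1, chr1:23559502-23559751 on the minus strand for ID3 and chr3:170357465-170357714 on the plus strand for SKIL. Capitals mark matches on either strand to 6 motifs. The first is CAGAC, called the SMAD core here. The second is GTCTAGAC, the SMAD palindrome. The third is GGCGCC, called the GC palindrome here. The fourth is GCCGNCGC, called the spaced GC motif here, and it can overlap the GC palindrome. The remaining motifs are the TATA box, searched as TATAAA, and the CCAAT box.
ID1: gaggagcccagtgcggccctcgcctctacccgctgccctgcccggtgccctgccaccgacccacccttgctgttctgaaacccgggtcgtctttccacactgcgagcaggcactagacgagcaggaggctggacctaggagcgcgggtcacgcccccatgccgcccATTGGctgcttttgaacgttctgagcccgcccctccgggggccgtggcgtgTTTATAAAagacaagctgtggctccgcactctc
ID3: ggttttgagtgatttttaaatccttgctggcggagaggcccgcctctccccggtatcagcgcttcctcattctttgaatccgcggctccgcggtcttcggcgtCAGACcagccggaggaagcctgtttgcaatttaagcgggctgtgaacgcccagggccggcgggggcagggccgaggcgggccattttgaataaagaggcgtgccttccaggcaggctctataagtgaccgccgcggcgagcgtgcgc
SKIL: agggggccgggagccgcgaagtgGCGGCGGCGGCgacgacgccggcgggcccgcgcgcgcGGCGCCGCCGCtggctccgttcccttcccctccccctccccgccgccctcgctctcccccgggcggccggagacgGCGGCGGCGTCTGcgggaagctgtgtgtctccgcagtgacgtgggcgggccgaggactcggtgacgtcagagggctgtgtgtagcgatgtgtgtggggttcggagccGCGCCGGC

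The SKIL window held 1 SMAD core, 1 GC palindrome and 5 matches to the spaced GC motif, some of them overlapping. The ID3 window held 1 SMAD core, and the ID1 window held none of the first 4 motifs, 1 CCAAT box on the opposite strand and a TATA box matched on both strands. Among 35116 RefSeq promoter windows of the same length, 38% held the SMAD core, 0.182% the SMAD palindrome, 16.4% the GC palindrome, 12.9% the spaced GC motif, 10.7% the TATA box and 32% the CCAAT box. The TGFBR3 window held no match to any of the 6 motifs, and the BAMBI window held 2 SMAD cores, 3 GC palindromes, 1 spaced GC motif and 1 CCAAT box. The table held 66 windows for 36 of the 39 members, and SMAD6 alone among them had the SMAD palindrome. These matches describe letters in a short window and carry no measurement of binding.

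Beyond the members, a wider list of 99 genes of the same pathways was read in the same way. Of these, 84 had a named probe and 54 passed the level filter, 22 above 0 and 32 under it, with a median log2 ratio of -0.09. At least 2-fold differences were seen for 8 of the 54 (14.8%), 4 higher and 4 lower, against 6.21% of all kept genes. Past the spread between probes were 23 of the 54 (42.6%), against 34.8%. The list was chosen with earlier results of these data known, so neither share is independent of those results. The genes named from this list are the 8 at least 2-fold apart, besides ID4 above and ZFYVE9 in the closing section, both chosen after their values were seen. Markers of cell types that also belong to the list are given with the markers.

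A pair of these 8 genes acts on the precursor or the latent form of TGF-beta. THBS1, a matrix glycoprotein that can activate latent TGF-beta, read 206 with ncRNA and 37 with miR-210, a log2 ratio of -2.36. FURIN, the protease that cleaves ligand precursors, read 34 and 80, a log2 ratio of 1.34, and 1.12 with an offset of 10. Its normalized ncRNA value of 33 was under the filter level. FURIN was therefore kept through its miR-210 value, and the size of the fold is uncertain. THBS1 and FURIN differed in opposite directions, and each had its lower value near or under the filter level. AMH, a ligand of the same family, read 88 and 40, a log2 ratio of -1.03, and -0.88 with an offset of 10.

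Another pair belongs to a repressor complex that SMAD proteins join on cell cycle genes. E2F5, its DNA-binding part, read 89 and 205, a log2 ratio of 1.31. RBL1, which encodes the pocket protein p107, read 103 and 40, a log2 ratio of -1.25. The partners were displaced in opposite directions. USP15, a deubiquitinase of the TGF-beta receptor complex, read 65 and 125, a log2 ratio of 1.05, and 0.94 both without normalization and with an offset of 10.

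The last 2 genes are TGF-beta responsive and also differed in opposite directions. IL11, a cytokine that TGF-beta induces, read 38 and 148, a log2 ratio of 2.08, and 1.82 with an offset of 10. Its normalized ncRNA value of 36.5 was under the filter level, so it was kept through its miR-210 value and the size of the fold is uncertain. SNAI2, a transcription factor of basal cells and of epithelial-mesenchymal transition, read 501 and 201, a log2 ratio of -1.21. Of the 13 kept genes in the wider target group, 7 were above 0 and 6 under it, with a median of 0.03, and past the spread between probes 4 were higher and 3 lower.

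**Figure D4:**
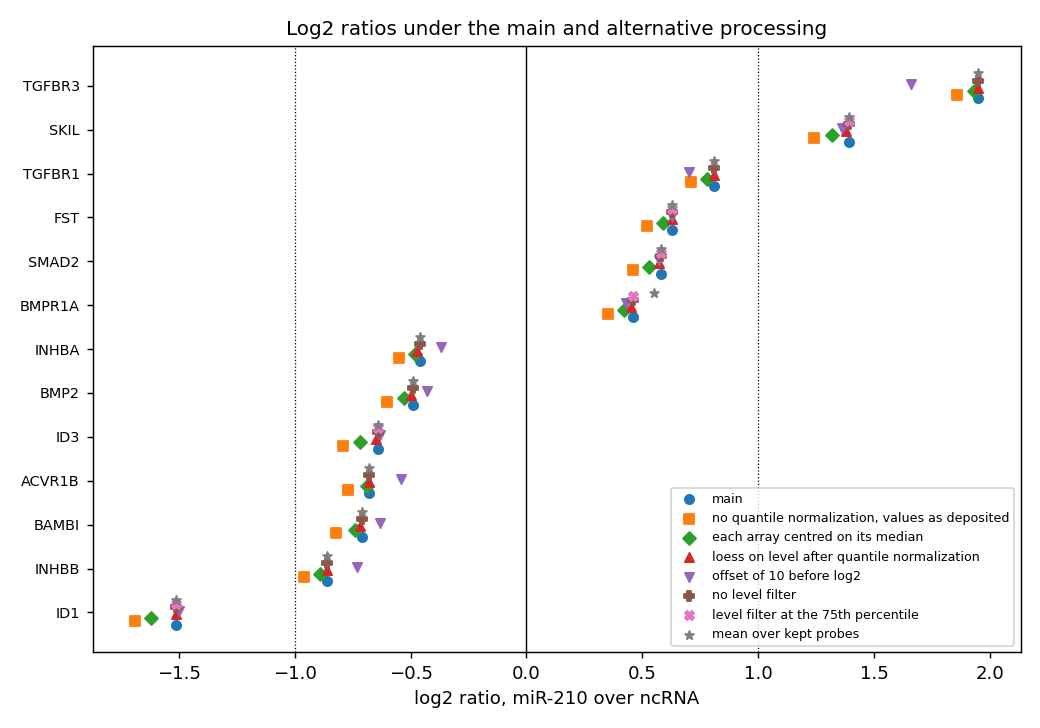
Log2 ratio of miR-210 over ncRNA for the 13 members past the spread between probes, under the main processing and the 7 alternatives (symbols; a symbol is missing where a stricter level filter removed the gene), with dotted lines at 2-fold. ID1 ranges from -1.69 to -1.50, SKIL from 1.24 to 1.39 and TGFBR3 from 1.66 to 1.95, and none of the 13 changes sign.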

How the data were processed

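Total RNA of 2 samples was hybridised to a 1-colour Cy5 array (Toray), per the labels. The deposited table holds linear intensity values for 24267 probes. No scanner, background correction or normalization is named for them in the labels. Negative values show that some background was taken off first. The 24177 probes above 0 on both arrays were taken to log2 and quantile normalized, and 12090 at or above the median mean level were kept. Probes with 1 symbol numbered 13395, with several 0, and unnamed 10872; 2285 symbols were updated through unambiguous synonyms in RefSeq (GRCh38.p14). The brightest kept probe stood for a gene. The steps were tested on simulated data. With 1 array per group there was no test, and the number of arrays limits the precision. All members are named; of the wider pathway list, the genes at least 2-fold apart, besides ID4 and ZFYVE9, chosen after their values were seen. Members and lists were chosen with earlier results of these data known. The 7 alternatives changed normalization, offset, level filter or probe choice. Python 3.11.15, numpy 2.4.6, pandas 2.3.3 and statsmodels 0.14.6 were used.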

Additional observations from a re-analysis of the deposited data

Results flagged for a closer look

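ZFYVE9, which encodes the SMAD anchor SARA, was picked out because a kept probe that the gene comparison does not use carried a larger difference than the one it uses. The dimmer probe read 15 with ncRNA and 114 with miR-210, a log2 ratio of 2.97, and the brighter probe read 87 and 112, a log2 ratio of 0.47. The mean over both probes was 1.72. The dimmer probe had its ncRNA value under the filter level of 37.5 and was kept through its miR-210 value, so the size of its ratio and of the mean is uncertain.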

How the results depend on the processing

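Each of the 27 members with a ratio was recomputed under 7 alternatives. All 171 resulting values lay within the spread between probes (0.44) of the main value, and no member past that spread changed sign. Part of these values could not move. The filter alternatives left the ratio of a kept member unchanged by construction, and the mean over kept probes could change BMPR1A alone. Near 0, ENG and ACVR2B turned under 0 on the deposited scale, and ENG also with each array centred on its median (-0.004). A level filter set at the 75th percentile kept 9 members: 1 was at least 2-fold higher, 6 were past the spread between probes, and their median log2 ratio was 0.35, against 0.006 for all genes. The members' median was -0.20 on the deposited scale and -0.12 with each array centred on its median, and that of the wider list -0.20 on the deposited scale. Among all genes, 874 were at least 2-fold higher and 862 lower with no level filter, and 95 and 97 with the filter at the 75th percentile, against 202 and 213. On the deposited scale these were 140 and 318, so that 30.6% of them were higher in place of 48.7%. The filter alternatives test fewer or more genes by construction; for the others the cause was not tested. Leaving out a replicate was not possible with 1 array per group.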
